A study of Homo sapiens with 9 samples.

Results

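CXCL5 and CXCL8 are the transcripts of a pair of chemokines that draw neutrophils, and they are 2 of the 14884 genes named in the deposited array table, found by gene symbol with 1 row each (Entrez genes 6374 and 3576). They were chosen by their differences from vehicle, both being lower with each drug, so the comparisons of each drug with vehicle are given here as a description, with no test. The cells were THP-1, a human monocytic leukaemia line, brought to a macrophage-like M0 state with the phorbol ester PMA, which all 3 groups received. For 16 h one group was then given vehicle, one cisplatin at 0.5 µM and one osimertinib at 100 nM. Cisplatin is a platinum compound that forms DNA crosslinks, and osimertinib blocks the kinase of the epidermal growth factor receptor, mutant forms above all. Each group had 3 replicates that the labels call biological, and the total RNA of each was put on its own Affymetrix Human Gene 2.0 ST array, 9 arrays in all. The values are on a log2-like scale, where a difference of 1 is a doubling, and each sentence below says whether a value is a level or a difference.

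CXC chemokines with the amino acids glutamate, leucine and arginine (ELR) before their first cysteines act on the receptors CXCR1 and CXCR2, which neutrophils carry, and guide these cells into inflamed tissue. CXCL8, also called interleukin 8, binds both receptors, while CXCL5 acts mainly on CXCR2. Macrophages make them in response to toll-like receptor ligands, interleukin 1, TNF and phorbol esters. Transcription of CXCL8 is driven by NF-kB with AP-1 and C/EBP factors, and its mRNA carries AU-rich elements that mark it for rapid decay unless p38 MAP kinase signalling protects it.

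The genes lie in the same chemokine cluster on chromosome 4, and the stretch before each start site is shown because it holds the letters that the pair shares. Both are the 250 bases before the annotated start, from RefSeq (GRCh38.p14), printed 5′ to 3′ on the strand of the gene: chr4:73740319-73740568 on the plus strand for CXCL8 and chr4:73998678-73998927 on the minus strand for CXCL5. Capitals mark matches to an NF-kB word (GGAATTTCC), the AP-1 word TGANTCA and the TATA word TATAAA.
CXCL8: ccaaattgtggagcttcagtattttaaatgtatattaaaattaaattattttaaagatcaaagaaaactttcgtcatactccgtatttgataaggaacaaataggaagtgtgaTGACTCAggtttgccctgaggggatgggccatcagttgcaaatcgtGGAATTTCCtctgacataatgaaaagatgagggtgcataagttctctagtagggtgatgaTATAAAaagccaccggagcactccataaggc
CXCL5: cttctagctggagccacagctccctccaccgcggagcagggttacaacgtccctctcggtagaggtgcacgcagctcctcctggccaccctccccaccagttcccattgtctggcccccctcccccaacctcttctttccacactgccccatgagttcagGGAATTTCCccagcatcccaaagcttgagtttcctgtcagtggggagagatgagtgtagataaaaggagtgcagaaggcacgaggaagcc

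The longest run of letters common to both stretches was the 9-letter NF-kB word GGAATTTCC, which starts at position -91 in CXCL8 and at -90 in CXCL5, counted from the gene's start. Searched on both strands, this word was in 0.413% of 35116 promoter windows of the same length. CXCL8 also held an AP-1 match at -137 to -131 and a TATA match at -31 to -26, words found in 6.57% and 10.7% of the windows, and CXCL5 held neither. A looser NF-kB word, GGNNNTTCC, overlaps the strict one and was in 17.1% of windows. Among the other ELR chemokines the strict word was in the windows of CXCL1 and CXCL3 (both at -78), CXCL2 (-77) and CXCL6 (-89), and was not matched in that of PPBP. CCL20, a chemokine described below, held the loose word at -79 to -71 and a TATA match at -29 to -24. A match of letters describes the sequence and shows neither binding nor use of a site.

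**Figure D1:**
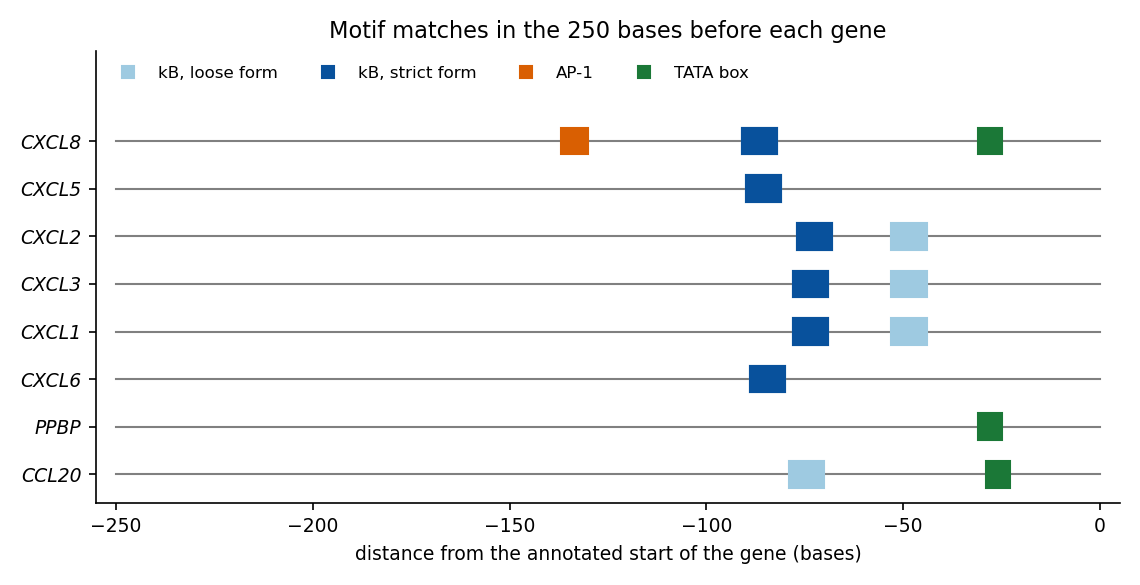
Matches to NF-kB (kB), AP-1 and TATA words in the 250 bases before the annotated start of 8 chemokine genes; the horizontal axis gives the distance from the start in bases and each box is 1 match drawn to scale. The strict kB word stands at nearly the same place in CXCL8 (-91) and CXCL5 (-90).

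The level of CXCL5 fell into a higher and a lower range. On the vehicle arrays it was 5.995, 5.70 and 5.39 (mean 5.69 ± 0.30, SD, n = 3), on the cisplatin arrays 4.38, 3.999 and 4.67 (4.35 ± 0.34, n = 3) and on the osimertinib arrays 3.96, 4.33 and 4.06 (4.12 ± 0.19, n = 3). Every treated array was below every vehicle array, and the cisplatin and osimertinib arrays overlapped. The difference from vehicle was -1.34 (moderated SE 0.18) with cisplatin and -1.58 (SE 0.18) with osimertinib, which is 2.54-fold and 2.98-fold lower. In bulk RNA a lower level in each cell and fewer cells that make the transcript cannot be told apart.

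CXCL5 in treated cells was near the bottom of the range that was tested. Genes entered the tests when their mean over the 9 arrays was at least the median of all named genes, 4.28. The mean of CXCL5 was 4.72, which passed because of the vehicle arrays, and 1 of 3 cisplatin arrays and 2 of 3 osimertinib arrays lay below this limit. The background of the array at this level was not analysed here.

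The level of CXCL8 fell into 3 ranges that did not overlap. It was 7.07, 7.17 and 7.29 with vehicle (mean 7.17 ± 0.11, SD, n = 3), 6.64, 6.71 and 6.71 with cisplatin (6.68 ± 0.041, n = 3) and 6.04, 5.59 and 5.47 with osimertinib (5.70 ± 0.30, n = 3). Vehicle was highest, cisplatin lay between, and osimertinib was lowest on all of its arrays. The difference from vehicle was -0.49 (SE 0.12) with cisplatin and -1.47 (SE 0.12) with osimertinib, or 1.41-fold and 2.78-fold lower. Cisplatin replicates 2 and 3 held 1 equal value, as at least 2 arrays of a group did for 25.7% of tested genes, so the spread in that group may look too small.

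**Figure D2:**
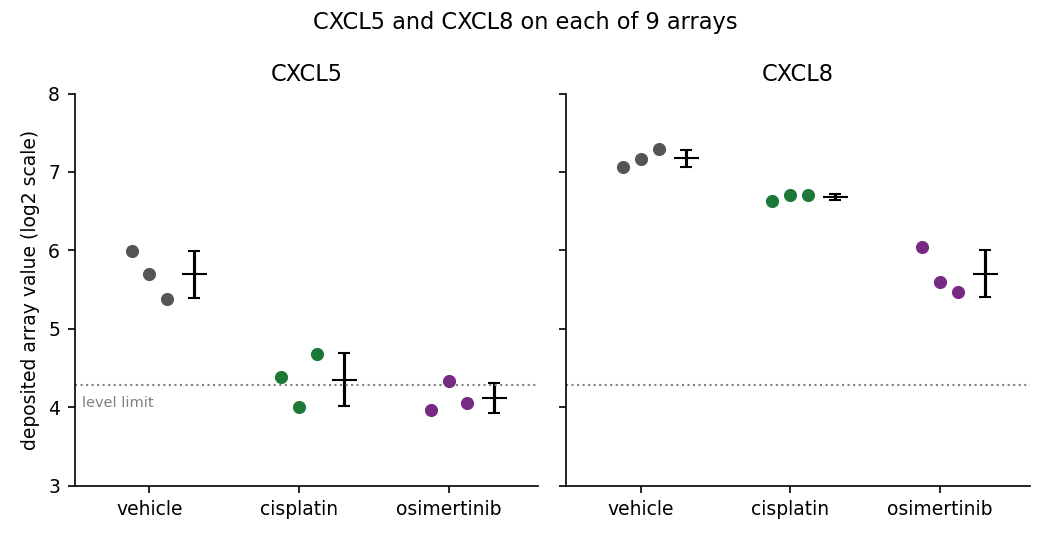
Deposited log2 values of CXCL5 and CXCL8 on each array (points, 3 per group) with the group mean and SD (bars); the dotted line is the level limit of 4.28. CXCL8 separates all 3 groups, whereas the cisplatin and osimertinib points of CXCL5 overlap.

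Both genes were lower with each drug, where 14.5% of the 7442 tested genes were called lower with cisplatin and 13.7% with osimertinib (limma with Benjamini-Hochberg adjustment, adjusted p under 0.05). A further quantile normalization moved the split of called genes from 1227 higher and 1081 lower to 1968 and 974 for cisplatin, and from 1255 and 1022 to 2004 and 932 for osimertinib. Centring the arrays on their medians gave 1536 higher and 734 lower for osimertinib. All treated arrays lay below all vehicle arrays for 19.8% of tested genes with cisplatin and 19.5% with osimertinib. These comparisons chose the genes, and they share the 3 vehicle arrays. With cisplatin, CXCL5 had the 33rd lowest difference of 7442 and CXCL8 the 496th. With osimertinib they stood 12th and 19th.

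The comparison of the drugs with each other was not itself used to choose these genes. It is, however, the difference between the 2 comparisons with vehicle that chose them, so it is not independent of that choice. The p-values and the rank given here make no allowance for this. CXCL8 was lower with osimertinib than with cisplatin by 0.98 on the log2 scale (difference -0.98, SE 0.12, 95% interval -1.25 to -0.71, 1.97-fold lower; limma adjusted p = 9.77e-04, n = 3 and 3). All 3 osimertinib arrays lay below all 3 cisplatin arrays, and the gap between the groups was 0.59. Of the tested genes 0.981% were called lower in this comparison and 0.766% higher, and in 6.88% the osimertinib arrays lay wholly below. The difference of CXCL8 was the 3rd lowest of 7442. CXCL8 stayed called in each of 17 alternative analyses, with adjusted p from 8.6e-05 to 0.01.

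For CXCL5 the difference between osimertinib and cisplatin was -0.23 (SE 0.18, 95% interval -0.63 to 0.16, n = 3 and 3). CXCL5 passed the level limit through its vehicle arrays, and the means of both drugs lay close to the limit, so this value is given as a description and does not show that the drugs act alike on CXCL5. Leaving out 1 array moved it between -0.41 (without cisplatin replicate 2) and -0.07 (without cisplatin replicate 3).

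Whether the genes differed in their response was examined by centring each on its own vehicle mean and taking CXCL8 minus CXCL5 on every array. This quantity was 0.77, 1.23 and 0.55 with cisplatin (mean 0.85 ± 0.34, SD, n = 3) and 0.60, -0.22 and -0.07 with osimertinib (0.10 ± 0.44, n = 3). With cisplatin CXCL8 was thus less far below vehicle than CXCL5 on each array, and with osimertinib the values lay on both sides of 0. The mean difference, osimertinib minus cisplatin, was -0.75, and the groups overlapped at cisplatin replicate 3 and osimertinib replicate 1. These values are a description, since CXCL5 with either drug lay close to the level limit. With 3 against 3 arrays an exact permutation test cannot pass 0.05. Whether the genes differ in how the drugs compare was therefore not settled.

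The deviations of CXCL5 and CXCL8 from their group means had opposite signs on 7 of 9 arrays. The deviations of a group sum to 0, so the signs are not independent. Some were also close to 0, as on vehicle replicate 2 (0.006 for CXCL5 and -0.009 for CXCL8). The count is therefore a description only. The pooled within-group SD was 0.28 for CXCL5 and 0.19 for CXCL8. Vehicle replicate 1, for example, held the highest CXCL5 and the lowest CXCL8 of its group.

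The other ELR ligands were CXCL2, which passed the level limit, and CXCL3, CXCL6 and PPBP, which did not. CXCL2, another neutrophil chemokine whose window holds the strict NF-kB word, had levels of 5.12, 4.79 and 5.03 with vehicle, 5.20, 4.69 and 5.03 with cisplatin and 5.03, 5.14 and 5.01 with osimertinib. The 3 groups overlapped throughout. Its difference from vehicle was -0.01 (SE 0.13) with cisplatin and 0.08 (SE 0.13) with osimertinib, and neither was called (limma adjusted p = 0.975 and 0.69, n = 3 per group). CXCL3 had group means of 2.48, 2.74 and 2.58 with vehicle, cisplatin and osimertinib, CXCL6 2.59, 2.39 and 2.63, and the platelet chemokine PPBP 2.30, 2.28 and 2.21. CXCL1 was not analysed here, having no named row. The receptor genes CXCR1 and CXCR2 were also below the limit, with means over all arrays of 2.28 and 2.47.

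Between CXCL8 and CXCL5 on the chromosome lie 5 protein-coding genes in the RefSeq order: CXCL6, PF4V1, CXCL1, PF4 and PPBP. Of these 4 were named and 1 was tested, PF4, a platelet chemokine that lacks the ELR letters. PF4 differed from vehicle by -0.13 with cisplatin and -0.20 with osimertinib, and neither was called (limma adjusted p = 0.44 and 0.21). CXCL3 and CXCL2 follow CXCL5, and beyond them MTHFD2L, a mitochondrial folate enzyme gene, was not called either (0.04 and -0.12; limma adjusted p = 0.862 and 0.545). Most tested genes were not called either: 16.5% were called higher and 14.5% lower with cisplatin, and 16.9% and 13.7% with osimertinib. Nothing particular to the neighbours is therefore read from these values. The mean of MTHFD2L, 4.33, was also just above the level limit of 4.28.

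Chemokines outside the ELR group did not share 1 direction. The group of other CXC, XC and CX3C ligands had 3 tested members, PF4, CXCL16 and CX3CL1. Limma called 0 of them in any comparison, and at an unadjusted p under 0.05 it had 1 higher with cisplatin, 0 in either direction with osimertinib and 1 lower with osimertinib than with cisplatin. Up to 2 were called higher with cisplatin in the alternatives, among them 1 without vehicle replicate 1. Of 6 tested CC ligands 4 rose and 1 fell with cisplatin, and 2 rose and 1 fell with osimertinib. Over all tested genes 16.5% were called higher and 14.5% lower with cisplatin, and 16.9% higher and 13.7% lower with osimertinib. These shares are the background for each list below at the adjusted threshold, and nothing is read from a count of 1 or 2. No share of all tested genes was taken at an unadjusted p. The counts at that threshold, here and below, are therefore a description only. The member that fell each time was CCL20, which attracts CCR6-bearing lymphocytes and dendritic cells, while the T-cell attractants CCL5 (3.85 and 3.40) and CCL22 (2.49 and 2.36) rose with both drugs. Between the drugs 3 CC ligands were called lower with osimertinib: CCL20 (-0.77), CCL5 (-0.45) and CCL4 (-0.71). Of all tested genes 0.981% were called lower and 0.766% higher in that comparison. The call of CCL4 was lost in 10 settings (limma adjusted p = 0.184 without osimertinib replicate 1).

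**Figure D3:**
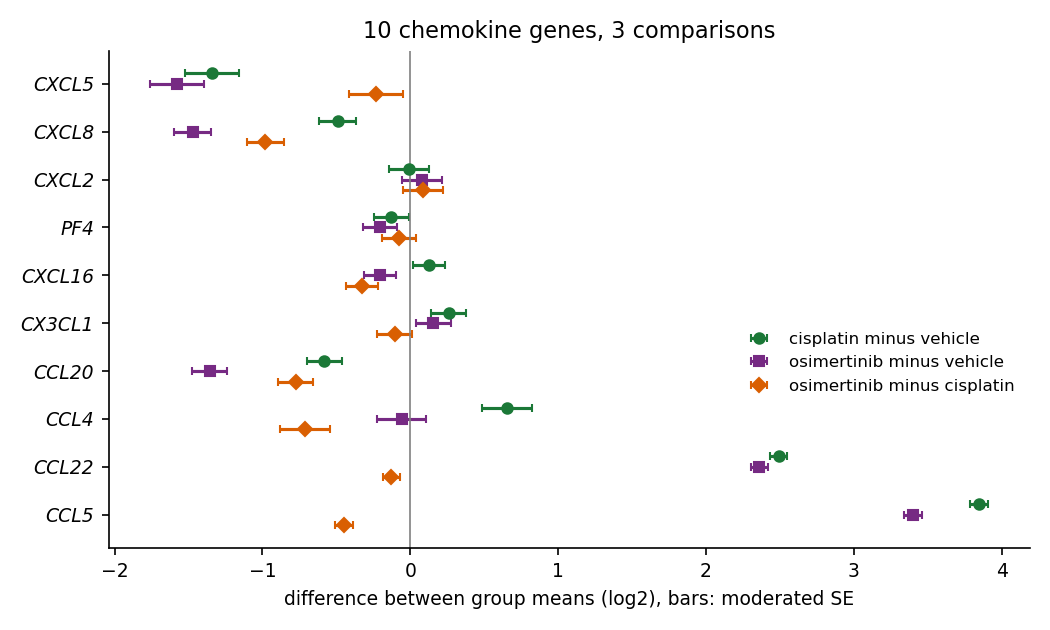
Differences between group means on the log2 scale, with moderated SE, for 10 chemokine genes in 3 comparisons. CXCL8 and CCL20 share a stepwise order of vehicle, cisplatin and osimertinib, and CXCL2 and PF4 stand near 0.

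CCL20 was also the gene whose profile was nearest to that of CXCL8. Likeness was the root mean square difference between profiles over the 9 arrays, each centred on its vehicle mean, and 6777 other protein-coding genes were compared; a smaller value means a closer profile. CCL20 stood at 0.13 from CXCL8, against a median of 0.95. Its levels were 7.07, 7.31 and 7.13 with vehicle, 6.54, 6.63 and 6.59 with cisplatin and 6.11, 5.60 and 5.73 with osimertinib. As with CXCL8, the 3 groups did not overlap, and osimertinib replicate 1 was the highest of its group. CTSW, a cathepsin gene (0.18), PNOC, an opioid-like peptide precursor (0.28), THBS1, a matrix glycoprotein gene (0.28), and CKAP2L, a spindle protein gene (0.29), followed. The differences between osimertinib and cisplatin were -0.77 for CCL20, -0.70 for CTSW and -0.57 for PNOC. They are a description, since likeness to CXCL8 over the same arrays chose these genes.

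The profiles nearest to CXCL5 were less close and held no chemokine. They were C20orf96 (0.26), ANKRD36B (0.28), the meiotic gene MND1 (0.29), NPIPB5 (0.29) and the meiotic recombination gene MSH5 (0.30), against a median of 1.26. CXCL8 stood at 0.59 from CXCL5. C20orf96 had levels of 5.75, 5.72 and 5.62 with vehicle, 4.24, 4.13 and 4.51 with cisplatin and 4.32, 3.81 and 4.18 with osimertinib, so its treated groups overlapped as those of CXCL5 did. Its means with cisplatin (4.29) and osimertinib (4.10) also lay close to the level limit, as those of CXCL5 did. Whether this shared low end made the profiles alike was not tested. ANKRD36B and NPIPB5 have near-identical copies elsewhere in the genome, so their values are uncertain.

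**Figure D4:**
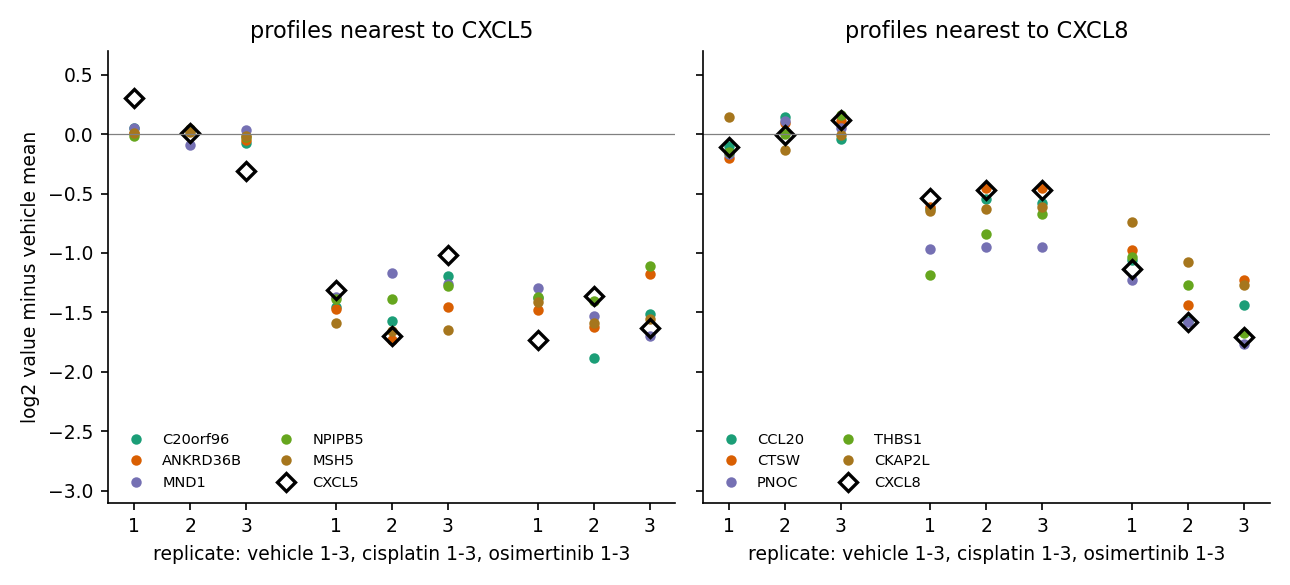
Log2 values minus the gene's own vehicle mean on each of 9 arrays, for CXCL5 and CXCL8 (open diamonds) and the 5 genes with the nearest profiles (dots). CCL20 lies close to CXCL8 on most arrays, while the vehicle arrays of CXCL5 spread more than those of its nearest genes.

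The next list holds receptors and adaptors that lead to these chemokines. Of 16 tested, 4 rose and 3 fell with cisplatin and 5 rose and 3 fell with osimertinib, with medians of -0.04 and 0.03 beside 0.03 and 0.04 over all tested genes. Nothing particular to the list is read from these counts, beside a background of 16.5% higher and 14.5% lower with cisplatin and 16.9% and 13.7% with osimertinib. TLR2, the toll-like receptor for bacterial lipoproteins, had levels of 7.999, 8.02 and 7.94 with vehicle, 7.79, 7.84 and 7.84 with cisplatin and 7.23, 7.16 and 7.10 with osimertinib. It was lower with osimertinib than with vehicle by -0.82 and than with cisplatin by -0.66 (SE 0.062; limma adjusted p = 8.71e-05), and its difference between cisplatin and vehicle was not called (-0.16; limma adjusted p = 0.0655). IRAK2, a kinase of the interleukin 1 and toll-like receptor pathway, differed by -0.33 with cisplatin, a call lost in 8 settings (limma adjusted p up to 0.132, without vehicle replicate 3), and fell with osimertinib (-0.61). RIPK2, the kinase of the NOD receptors, rose by 0.64 and 0.77, and the receptor gene IL17RA by 0.29 and 0.35. With cisplatin the falls numbered 0 without vehicle replicate 2, and the rises 2 without vehicle replicate 3 or cisplatin replicate 2. The rises with osimertinib numbered 2 or 3 without any 1 of the vehicle replicates, cisplatin replicate 3 or osimertinib replicate 1 or 2.

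Of 9 tested NF-kB subunits, kinases and inhibitors, 1 rose with each drug and 0 fell by limma, where 16.5% and 16.9% of all tested genes rose; at an unadjusted p under 0.05, 1 was lower with cisplatin and 0 with osimertinib. With osimertinib 3 rose under a further quantile normalization, 2 with median centring, and 2 without vehicle replicate 3 or cisplatin replicate 1. With cisplatin 2 rose under quantile normalization. The member that rose was BCL3, a nuclear partner of NF-kB subunits (0.37 and 0.45), and the cisplatin call was lost without cisplatin replicate 3 (limma adjusted p = 0.0697). RELA, the main activating subunit, stood at -0.15 and -0.12, and neither was called. NFKBIA and TNFAIP3, inhibitors of the pathway, have no named row and were not analysed here.

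Of 8 tested members of the AP-1 and C/EBP list, 4 rose with cisplatin and 4 with osimertinib, with medians of 0.39 and 0.26, beside 16.5% and 16.9% of all tested genes called higher. JUN rose by 1.41 and 1.39, FOS by 0.84 and 0.85 and JUNB by 0.67 and 0.58 (limma adjusted p at most 3.62e-04). Limma called 0 members lower with either drug, and there were also 0 at an unadjusted p under 0.05. Between the drugs limma called 0 members, and at an unadjusted p under 0.05 there were 1 higher and 2 lower with osimertinib. Without cisplatin replicate 1 or osimertinib replicate 1, limma called 1 lower. The C/EBP genes CEBPA, CEBPB, CEBPD and CEBPG have no named row.

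In the MAP kinase list, 5 of 10 tested genes rose and 1 fell with cisplatin, and 3 rose and 1 fell with osimertinib. The background was 16.5% higher and 14.5% lower with cisplatin and 16.9% and 13.7% with osimertinib, and nothing is read from the single falls. DUSP1, a phosphatase that switches off p38 and JNK kinases, rose from 7.18, 7.31 and 7.45 with vehicle to 9.37, 9.46 and 9.38 with cisplatin and 9.28, 9.29 and 9.25 with osimertinib, by 2.09 and 1.96. DUSP6, which acts on ERK kinases, rose by 0.52 and 0.58 and the ERK-activating kinase gene MAP2K1 by 0.53 and 0.52. MAPKAPK2, the p38-activated kinase that stabilises mRNA with AU-rich elements, fell with cisplatin (-0.32). With osimertinib it differed by -0.24, a call lost in 8 settings (limma adjusted p = 0.137 with median centring). The rises with cisplatin numbered 3 to 5 over the alternatives, with 3 without vehicle replicate 1 or 3, cisplatin replicate 2 or 3, or osimertinib replicate 2 or 3. The fall with osimertinib was lost without vehicle replicate 1 or 2 or osimertinib replicate 2 or 3. Limma called 0 of these genes between the drugs, with 1 lower with osimertinib at an unadjusted p under 0.05.

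The decay list holds factors that bind or degrade mRNA with AU-rich or stem-loop elements. Of 11 tested, 4 fell with each drug, 0 rose with cisplatin (1 at an unadjusted p under 0.05) and 2 rose with osimertinib by limma, with medians of -0.18 for both drugs. Among all tested genes 14.5% fell with cisplatin and 13.7% with osimertinib, and 16.5% and 16.9% rose. With cisplatin and osimertinib the translational repressor gene TIA1 fell (-1.05 and -0.78), as did the ribonuclease gene ZC3H12C (-0.47 and -0.48). RC3H1 (-0.40 and -0.41) and RC3H2 (-0.56 and -0.45), which encode roquin proteins, fell as well. The rises with osimertinib numbered 0 without vehicle replicate 1 or 2 and 1 without osimertinib replicate 1 or 3. With cisplatin 2 rose under a further quantile normalization. Between the drugs limma called 0 members, with 2 higher with osimertinib at an unadjusted p under 0.05. The gene ZFP36, which encodes tristetraprolin, has no named row.

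Proteases can trim ELR chemokines and so raise or end their activity. Of 8 tested, 4 rose and 1 fell with cisplatin and 2 rose and 2 fell with osimertinib. All tested genes gave 16.5% higher and 14.5% lower with cisplatin and 16.9% and 13.7% with osimertinib, and nothing is read from the counts of 1 or 2. Quantile normalization gave 2 falls with cisplatin, and 1 rise and 3 falls with osimertinib. MMP1, a collagenase, had levels of 5.13, 4.97 and 5.06 with vehicle, 4.83, 5.48 and 5.25 with cisplatin and 4.14, 3.87 and 3.51 with osimertinib. It was lower with osimertinib than with cisplatin by -1.34 (SE 0.17), while cisplatin and vehicle overlapped. All 3 of its osimertinib values lay below the level limit, which MMP1 passed through its vehicle and cisplatin arrays. The difference is therefore a description, and its size is uncertain. ANPEP, the aminopeptidase CD13, rose by 0.59 with cisplatin and was lower by -0.43 with osimertinib than with cisplatin. Its rise with osimertinib (0.16) was lost in 7 settings (limma adjusted p up to 0.148, without trend and robust fitting). With cisplatin and osimertinib the cathepsin gene CTSK fell (-0.67 and -0.79) and CTSS rose (0.35 and 0.37). The rises with osimertinib numbered 1 without vehicle replicate 1 or 3 or osimertinib replicate 2 or 3.

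Among other signals to neutrophils, 2 of 11 tested genes rose and 3 fell with cisplatin, and 1 rose and 5 fell with osimertinib. The background was 16.5% and 14.5% for cisplatin and 16.9% and 13.7% for osimertinib. The split with osimertinib turned to 3 higher and 2 lower under both quantile normalization and median centring, and with cisplatin quantile normalization gave 4 higher and 2 lower. ALOX5AP, whose product feeds arachidonate to the enzyme that makes leukotrienes, had levels of 6.71, 6.69 and 6.61 with vehicle, 5.50, 5.90 and 5.85 with cisplatin and 5.90, 5.69 and 5.66 with osimertinib. It fell with each drug (-0.92 both times, SE 0.11; limma adjusted p = 4.95e-05 and 4.89e-05). ALOX5, the enzyme itself, fell with cisplatin (-0.62). Its cisplatin levels were 3.97, 4.05 and 3.996, all below the level limit, so the size of that fall is uncertain. With osimertinib ALOX5 differed by -0.32 and the calprotectin subunit gene S100A9 by -0.33, and both calls were lost in 8 or more settings (limma adjusted p = 0.0968 for ALOX5 without osimertinib replicate 3 and 0.196 for S100A9 without osimertinib replicate 2). S100A9 rose by 0.50 with cisplatin and was lower with osimertinib than with cisplatin by -0.83. Its osimertinib levels were 4.47, 4.04 and 4.26, with a mean of 4.26 just below the level limit. S100A9 passed that limit through its vehicle and cisplatin arrays, so its difference between the drugs is a description and its size is uncertain. CSF1, the macrophage growth factor, fell with osimertinib (-0.30). The falls with osimertinib numbered 2 without vehicle replicate 2 or osimertinib replicate 2 or 3, and 3 without vehicle replicate 1 or 3. The rises with osimertinib numbered 2 without vehicle replicate 2, cisplatin replicate 1 or osimertinib replicate 1 or 3. Those with cisplatin numbered 1 without vehicle replicate 1 or 3 or cisplatin replicate 2 or 3. TNF, the inflammatory cytokine gene, was not called (-0.17 and -0.10; limma adjusted p = 0.301 and 0.555), and IL1B, IL1A and IL6 have no named row.

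Markers of cell types were measured beside the pair, and their part in the result was not tested. Of 9 named macrophage markers 7 passed the level limit, and 3 rose with each drug: CD68 (0.51 and 0.30), CSF1R (0.50 and 0.29) and CD4 (0.65 and 0.59). Over all tested genes 16.5% were called higher and 14.5% lower with cisplatin, and 16.9% and 13.7% with osimertinib. Nothing is read from a single call in these marker lists. The mean of the 9 was 5.78 to 5.81 on the vehicle arrays, 5.91 to 6.12 with cisplatin and 5.85 to 6.01 with osimertinib. CD163 was at 2.43, below the limit. All 11 named markers of mature neutrophils were below the limit, at means of 1.67 to 4.17 over the arrays, and their mean was 2.91 to 3.03 with vehicle, 3.09 to 3.18 with cisplatin and 3.00 to 3.12 with osimertinib. Of 8 named epithelial and endothelial markers 3 passed (KRT18, KRT8 and PECAM1), with 1 called lower with each drug (KRT18, -0.35 and -0.30), calls lost in 3 and 8 settings (limma adjusted p up to 0.251 and 0.342, with the mean over both of its rows). Both named markers of lymphocytes and fibroblasts, CD2 and DCN, were below the limit. Across the whole table array medians ran from 3.29 to 3.37, and arrays of one group correlated at 0.983 to 0.991 over the tested genes.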

How the data were processed

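Total RNA of 9 THP-1 cultures was measured on Affymetrix Human Gene 2.0 ST arrays. Groups, doses and replicate numbers came from the labels. Per the series' design text in the labels, a service provider made gene-level log2-like values with Affymetrix pipelines, and the submitters' processing notes name Affymetrix Power Tools. Background correction, summarization method and log base were not given in the sources used here. From their range, 0.65 to 13.2, the deposited values were taken to be log2. If the base were another, the folds would change.

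Of 53617 rows, 16098 were named by the platform annotation, which can be old, and all Entrez identifiers matched RefSeq. The row with the highest mean stood for each of 14884 genes, and the 7442 genes with a mean of at least 4.28 were tested. Limma 3.58.1 (R 4.3.3) fitted 3 group means over the 9 arrays, with empirical Bayes, a variance trend and robust fitting. Two-sided p-values got Benjamini-Hochberg adjustment across the tested genes and were called under 0.05. The fit was tested on simulated data. The labels call the replicates biological, without saying whether they differ by culture or passage, so p-values measure the spread between these samples.

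The genes and gene lists were chosen with earlier results of these data known. Named were the pair, the other ELR ligands and their receptors, up to 4 members of each list with the smallest moderated F-test p, and the 5 nearest profiles to each gene. Named after their values were seen: TNF and MTHFD2L. Alternatives were other scalings, level limits, row rules, variance models, sample sets, a replicate block, and leaving out each array. Promoter sequences are RefSeq's. Arrays have no read depth, and their number limits the precision.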

Additional observations from a re-analysis of the deposited data

How the results depend on the processing

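The differences of CXCL5 and CXCL8 from vehicle kept their direction under every alternative run (17 for CXCL8, 16 for CXCL5, which fell below the higher level limit). They moved by less than the pooled within-group SD: with cisplatin CXCL5 ran from -1.50 to -1.17 and CXCL8 from -0.54 to -0.42, and with osimertinib CXCL5 from -1.73 to -1.43 and CXCL8 from -1.64 to -1.36. Between the drugs CXCL8 ran from -1.15 to -0.87. The count of genes called between the drugs was 130. It was 217 with quantile normalization on top, 85 with median centring, 76 without a level limit, 63 without trend and robust fitting and 77 with only the 2 groups compared, and 54 to 147 on leaving out 1 array (54 without cisplatin replicate 3, 67 without cisplatin replicate 2 and 75 or 76 without any 1 osimertinib replicate). Median centring turned its split from 57 higher and 73 lower to 48 and 37. The counts of genes called against vehicle stayed within 1.5 times of 2308 and 2277. Same-numbered arrays did not deviate together: their correlations ran from -0.23 to 0.13, and 1 of 9 was over 0.1. Those of differently numbered arrays ran from -0.12 to 0.20, and 2 of 18 were over 0.1. These were cisplatin replicate 1 with osimertinib replicate 2 (0.19) and cisplatin replicate 2 with osimertinib replicate 1 (0.20). What such arrays have in common was not tested. With the replicate number as a block CXCL8 between the drugs had an adjusted p of 0.00233 (limma). Of 88 calls of other named genes, 77 held in all alternatives run and none reversed; where a call or count moved, the cause was not tested. At levels near the limit, as for CXCL5 with either drug, the unmeasured background limits what a fold can show.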
